A study of Mus musculus with 16 samples.

Results

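Genes of the hypoxia response and of glycolysis were examined in mouse retinas: 37 genes chosen by name, read on arrays as 1 probe per gene, the one with the highest mean intensity among probes carrying the current or an older symbol. Of the 37 genes, 36 had such a probe and all 36 passed the filter on dim probes, among 23342 genes kept on the arrays. Gapdh, a glycolytic enzyme, had no probe under its own name and was not analysed here. The members comprised 4 regulators of the response, 15 measured glycolytic enzymes, 2 membrane transporters, 5 mitochondrial targets and 10 other targets of hypoxia-inducible factor (HIF).

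C57Bl6 mice received an intravitreal injection, and their retinas were collected 24 h later. The groups were Dll4-Fc (a fusion of the Notch ligand Dll4 with an antibody Fc part, 4 µg, n = 4), VEGF-A (the endothelial growth factor, 1 µg, n = 5), VEGF Trap (a soluble receptor fusion that binds VEGF-A, n = 3) and hFc (the Fc part alone, 4 µg, n = 4). Pups were 8 days old at injection with Dll4-Fc, VEGF-A or hFc, while no source used here gives age or dose for VEGF Trap. The labels name no altered allele in any group and do not say whether samples came from separate animals, so p-values measure spread between these samples, which may be technical. The titles hold a number code whose first part is the same for hFc 1 and 2 (1.2), and for VEGF-A 4 and VEGF Trap 3 (4.3). What the code means is not stated, but its leading digit equals the slide number given below on every array. With hFc 1 and 2 counted as 1 sample, the members called against hFc were 3 in Dll4-Fc, 13 in VEGF-A and 16 in VEGF Trap retinas. Over all 22772 genes tested, 890, 1839 and 470 were called in the same order. The Cy3 channel held the sample and the Cy5 channel a pool of equal amounts of RNA from the experiment, so every value is a log2 ratio of sample over pool and its zero is no neutral level. In whole retinas, fewer cells of a type and less RNA per cell cannot be told apart.

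HIF is a pair of proteins whose alpha subunit is hydroxylated by the Egln prolyl hydroxylases and destroyed when oxygen is plentiful. At low oxygen it accumulates and raises transcription of glucose transporters, glycolytic enzymes, lactate export, mitochondrial quality control and Vegfa, and it binds DNA at a short core sequence. The developing retina uses much glucose through glycolysis, and its oxygen supply changes as vessels grow over it and into it.

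The 16 arrays lay on 4 slides. Slide 2 held the 4 Dll4-Fc arrays and slide 1 the 4 hFc arrays, so slide and treatment cannot be told apart in any comparison with hFc or Dll4-Fc. Slide 3 held VEGF-A 1 and 2 with VEGF Trap 1 and 2, and slide 4 held VEGF-A 3 to 5 with VEGF Trap 3, so VEGF-A against VEGF Trap can be read within slides. The Cy3 signal was well above background on 84.9 to 91.0% of spots. The hFc arrays stood apart in a band of 89 of 532 array rows, where 19.8 to 22.4% of their spots were marked as outliers, against 0.0135 to 0.852% on the other arrays. The probes of 10 members lie in that band (Egln1, Pfkfb4, Aldoc, Tpi1, Pgk1, Pgam1, Pkm, Bnip3, Bnip3l and Ddit4). Outside the band, 10 of 25 members were lower in VEGF-A than in hFc retinas, 16 of 25 were higher in VEGF Trap than in hFc retinas and 2 of 25 were higher in Dll4-Fc than in hFc retinas. Within it, 5 of 10 were lower in VEGF-A, 4 of 10 higher in VEGF Trap and 1 of 10 lower in Dll4-Fc retinas, each against hFc. Calls over all genes within the band were not counted, so these 3 counts have no background to be read against. With the band left out of the fit, 19229 genes were tested against hFc. Of these, 906 were called lower in VEGF-A, 262 higher in VEGF Trap and 570 higher in Dll4-Fc retinas. All 8 rod marker genes passed the filter on dim probes.

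VEGF-A and VEGF Trap retinas lay at opposite ends. Of 36 members, 32 were lower and 0 higher in VEGF-A than in VEGF Trap retinas, with a median log2 difference of −0.90, against −0.03 over all 23342 genes tested, and none was higher at an unadjusted p under 0.05 either. Over all genes 19.3% were called in this comparison, made up of 8.68% lower and 10.6% higher. A call is an adjusted p under 0.05 by limma with Benjamini-Hochberg adjustment over all genes. Against hFc, 15 of 35 members were lower and 0 higher in VEGF-A retinas (median −0.33, with 10.2% of all genes called, 4.3% lower and 5.89% higher). The genes called lower in that comparison numbered 980 over all genes, but 602 and 600 without hFc 2 and hFc 3. VEGF Trap retinas had 20 of 35 members higher and 0 lower than hFc (median 0.55, with 3.73% of all genes called, 1.3% higher and 2.43% lower). Without VEGF Trap 1 the count of higher members was 12, with 190 of all 22772 genes called, 79 of them higher. At an unadjusted p under 0.05, no member was higher in VEGF-A or lower in VEGF Trap than in hFc retinas by limma, and with normexp and loess normalization 1 was called higher in VEGF-A. These comparisons share the VEGF-A, VEGF Trap and hFc arrays among them. Arrays of VEGF-A and VEGF Trap did not overlap for 33 of 36 members, and for 25.3% of all genes. The counts were 29 of 35 members in VEGF Trap against hFc (25.5% of all genes) and 16 of 35 in VEGF-A against hFc (16.1%). Among genes not called between VEGF Trap and hFc, 22.7% did not overlap. Dll4-Fc retinas had 2 members higher and 1 lower than hFc of 35 (median 0.11, with 4.58% of all genes called, 3.06% higher and 1.52% lower). Without Dll4-Fc 2 the calls numbered 5 among members and 933 over all 22772 genes. Set against VEGF-A, Dll4-Fc retinas had 21 of 36 members higher and 1 lower (median 0.44, with 13.3% of all genes called, 6.35% higher and 6.91% lower).

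**Figure D1:**
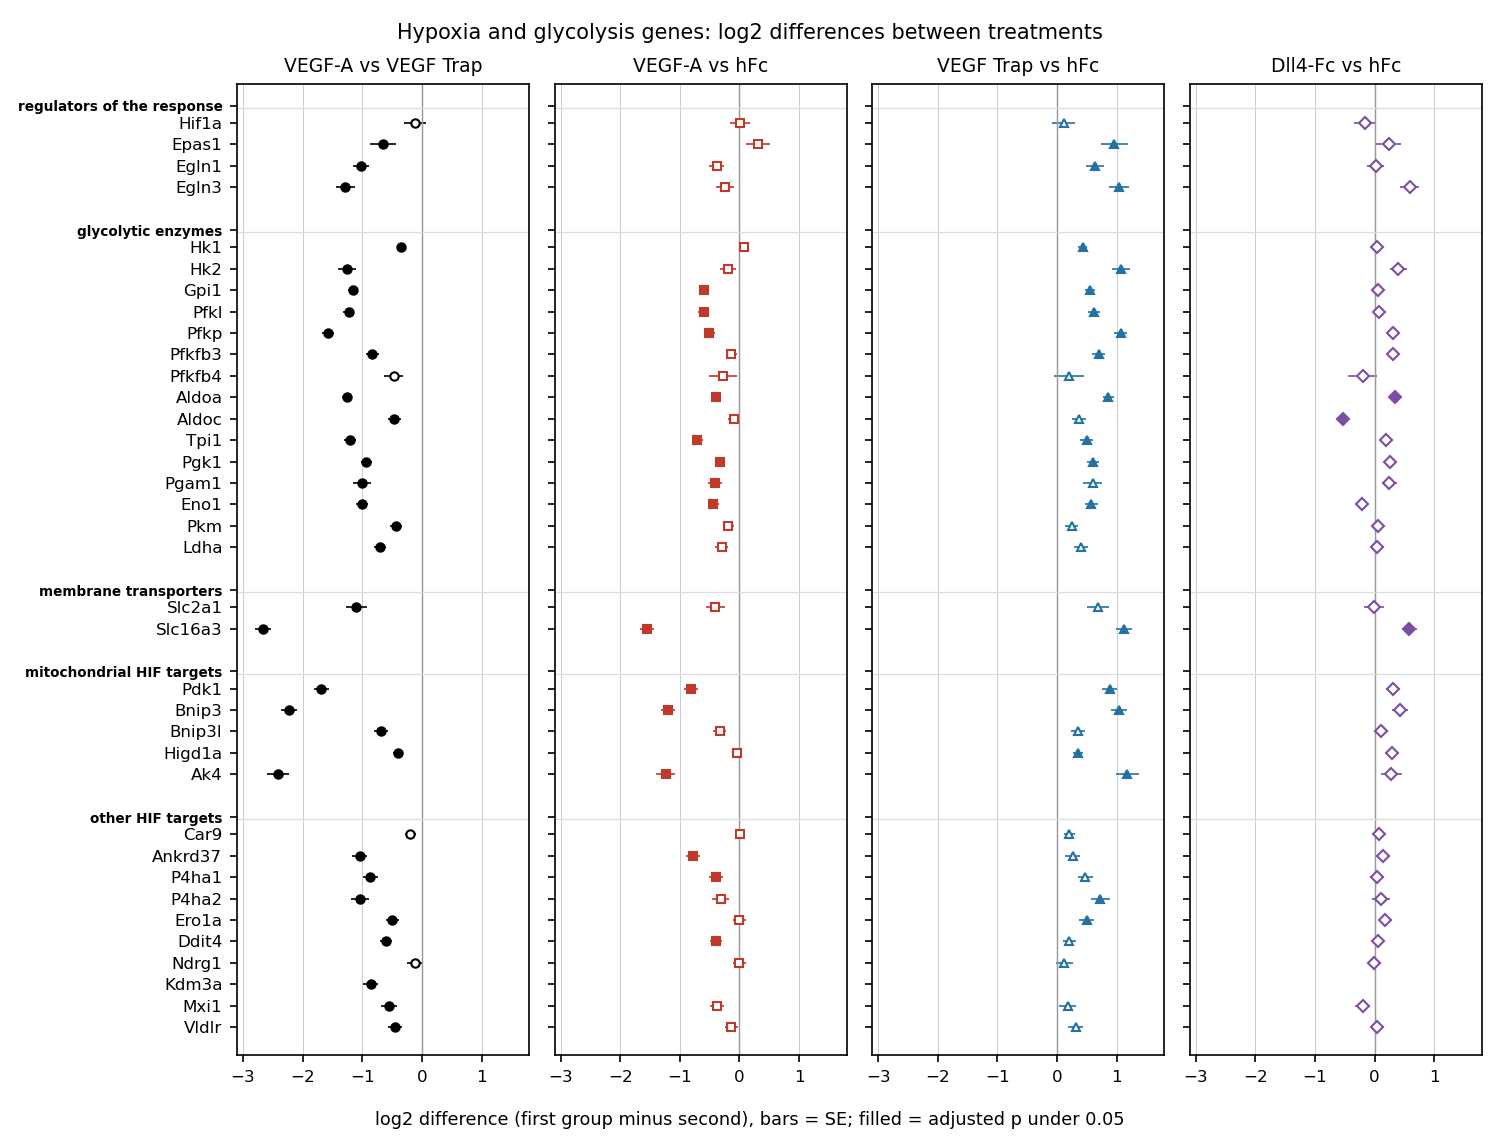
Log2 differences of the 36 measured genes in 4 comparisons, by role; each point is a difference from the limma fit, the bar is its SE, and filled points have an adjusted p under 0.05. In VEGF-A vs VEGF Trap 32 points are filled and all 36 lie below 0, with Slc16a3, Ak4 and Bnip3 farthest to the left; Kdm3a has no hFc value.

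The mean log2 ratio over the 30 members measured on every array was −0.17 to 0.03 in Dll4-Fc retinas, −0.69 to −0.46 in VEGF-A retinas, 0.38 to 0.46 in VEGF Trap retinas and −0.23 to −0.16 in hFc retinas. The VEGF-A, VEGF Trap and hFc arrays did not overlap in this mean, and a Dll4-Fc array reached into the hFc range.

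Promoter sequences are shown for the members with the largest differences between VEGF-A and VEGF Trap and, for contrast, for Gpi1, which differed without a match, and Hif1a, which was not called. They are from RefSeq (GRCm38.p6), written 5′ to 3′ on the gene's strand, 250 bases before to 50 after the annotated start. Capitals mark the HIF core sequences ACGTG and GCGTG on either strand, and CACGTG, which contains the core on both strands and is also the E-box, was counted once. Where a gene has several starts, the first listed is shown.
Slc16a3, chr11:120948817-120949116, forward strand: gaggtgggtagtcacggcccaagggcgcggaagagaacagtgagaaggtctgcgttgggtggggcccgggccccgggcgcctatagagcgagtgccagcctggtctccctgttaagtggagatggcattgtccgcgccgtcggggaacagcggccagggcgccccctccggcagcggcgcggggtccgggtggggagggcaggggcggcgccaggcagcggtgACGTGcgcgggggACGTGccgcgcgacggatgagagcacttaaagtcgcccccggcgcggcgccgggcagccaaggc
Ak4, chr4:101419039-101419338, forward strand: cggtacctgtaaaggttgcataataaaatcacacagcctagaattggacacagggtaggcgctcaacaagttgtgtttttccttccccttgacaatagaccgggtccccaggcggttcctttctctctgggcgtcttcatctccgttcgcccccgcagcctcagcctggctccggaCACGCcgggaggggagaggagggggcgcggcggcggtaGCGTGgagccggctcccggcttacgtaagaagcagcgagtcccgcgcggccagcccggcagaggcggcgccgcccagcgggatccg
Bnip3, chr7:138909457-138909756, reverse strand: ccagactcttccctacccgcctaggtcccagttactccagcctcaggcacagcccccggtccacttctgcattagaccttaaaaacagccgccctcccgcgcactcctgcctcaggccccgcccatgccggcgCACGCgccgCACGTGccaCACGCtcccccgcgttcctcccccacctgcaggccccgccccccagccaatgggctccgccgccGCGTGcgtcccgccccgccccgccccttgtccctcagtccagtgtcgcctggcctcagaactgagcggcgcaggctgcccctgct
Pdk1, chr2:71872974-71873273, forward strand: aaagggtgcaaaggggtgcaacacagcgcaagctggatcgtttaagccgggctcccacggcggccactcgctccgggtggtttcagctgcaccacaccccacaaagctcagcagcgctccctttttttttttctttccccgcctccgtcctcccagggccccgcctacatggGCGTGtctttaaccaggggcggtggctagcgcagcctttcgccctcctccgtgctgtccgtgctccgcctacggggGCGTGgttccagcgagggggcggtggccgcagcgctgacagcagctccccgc
Pfkp, chr13:6648722-6649021, reverse strand: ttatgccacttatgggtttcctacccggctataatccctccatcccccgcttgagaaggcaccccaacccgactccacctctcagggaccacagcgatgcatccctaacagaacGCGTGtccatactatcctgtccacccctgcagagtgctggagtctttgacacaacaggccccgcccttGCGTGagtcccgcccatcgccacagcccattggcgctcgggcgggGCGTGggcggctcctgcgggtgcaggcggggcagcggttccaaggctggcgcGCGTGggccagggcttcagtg
Gpi1, chr7:34230287-34230586, reverse strand: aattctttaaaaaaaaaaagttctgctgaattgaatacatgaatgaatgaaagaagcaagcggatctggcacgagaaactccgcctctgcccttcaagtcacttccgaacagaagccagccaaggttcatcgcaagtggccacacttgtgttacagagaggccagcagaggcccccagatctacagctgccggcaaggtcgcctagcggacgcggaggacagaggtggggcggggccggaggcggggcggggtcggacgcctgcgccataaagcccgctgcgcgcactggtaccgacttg
Hif1a, chr12:73907617-73907916, forward strand: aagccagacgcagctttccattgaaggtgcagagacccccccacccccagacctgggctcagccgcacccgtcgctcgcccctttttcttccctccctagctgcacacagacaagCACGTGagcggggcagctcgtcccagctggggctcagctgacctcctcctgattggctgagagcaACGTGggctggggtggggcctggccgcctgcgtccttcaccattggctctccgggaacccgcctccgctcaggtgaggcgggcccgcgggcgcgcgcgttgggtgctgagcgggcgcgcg
A core was present in 41 of 52 promoters of the 34 members in the table (78.8%), against 43.8% of all 32851 promoters of the same length. Per gene it was in at least 1 promoter of 31 of 34 members (91.2%), against 46.7% of all 27025 genes. Members have more listed starts per gene, which gives them more chances of a match. The 34 include Gapdh, which had no probe. Members' promoters also had a median GC content of 65.2%, against 52.7% for all, and the core holds a CG. Among promoters with a GC content of 57.25 to 69.0%, 23 of 27 member promoters (85.2%) and 64.4% of all 8555 held a core. Per gene this was 19 of 22 members (86.4%) and 65.9% of all. The E-box form was in 9.62% of member promoters and 7.15% of all. Within the same GC range the order was reversed, at 7.41% of member promoters and 10.5% of all. The core was absent from these windows for Gpi1, Tpi1 and Vldlr, and a match is a match of letters only, with no binding measured.

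Among the regulators, Hif1a, which encodes an oxygen-labile alpha subunit, was called in none of the 5 comparisons. Its log2 ratios ranged from −0.67 to 0.37 over the 16 arrays, and the groups overlapped. The difference was −0.11 between VEGF-A and VEGF Trap, with a 95% interval of −0.50 to 0.28, and 0.0045 between VEGF-A and hFc, with an interval of −0.36 to 0.37.

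Epas1, the gene of a second alpha subunit that is prominent in vessels, had log2 ratios of −0.29, 0.44, −0.55 and 0.42 in Dll4-Fc retinas, 0.23, 0.14, 0.19, −0.10 and −0.11 in VEGF-A retinas, 0.80, 0.86 and 0.50 in VEGF Trap retinas and 0.03, −0.62, −0.25 and −0.09 in hFc retinas. VEGF Trap arrays were above all VEGF-A and hFc arrays, while the Dll4-Fc arrays were widely spread. The gene was lower in VEGF-A than in VEGF Trap retinas (log2 difference −0.65, SE 0.22, adjusted p = 0.0477) and higher in VEGF Trap than in hFc retinas (log2 difference 0.96, SE 0.23, adjusted p = 0.0332). The first call held in 8 of 21 alternatives and the second in 10 of 20.

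Egln1, the main oxygen-sensing hydroxylase, had log2 ratios of 0.07, −0.01 and −0.30 in Dll4-Fc retinas, −0.29, −0.36, −0.56, −0.68 and −0.50 in VEGF-A retinas, 0.33, 0.46 and 0.83 in VEGF Trap retinas and −0.21, −0.08 and 0.0016 in hFc retinas, with 1 spot left out as an outlier in each of the Dll4-Fc and hFc groups. Egln3, a related hydroxylase that is itself a HIF target, had 0.39, 0.08, 0.14 and 0.48 in Dll4-Fc retinas, −0.41, −0.43, −0.19, −0.96 and −0.81 in VEGF-A retinas, 0.50, 0.78 and 0.89 in VEGF Trap retinas and −0.47, −0.29, −0.43 and −0.08 in hFc retinas. For both genes every VEGF Trap array exceeded every VEGF-A and hFc array. Both were lower in VEGF-A than in VEGF Trap retinas (Egln1 log2 difference −1.02, SE 0.13, adjusted p = 0.000116, and Egln3 log2 difference −1.28, SE 0.17, adjusted p = 5.99e-05). Both were also higher in VEGF Trap than in hFc retinas (Egln1 log2 difference 0.63, adjusted p = 0.0348, and Egln3 log2 difference 1.04, adjusted p = 0.00558). The Egln1 call against hFc held in 8 of 18 alternatives and in none of the 7 fits that left out 1 array. Against hFc, neither was called in VEGF-A retinas (Egln1 log2 difference −0.38, adjusted p = 0.0853, and Egln3 log2 difference −0.24, adjusted p = 0.364). In Dll4-Fc retinas all 4 Egln3 values were above all hFc values, with a difference of 0.59 that missed the threshold (adjusted p = 0.0518).

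The glycolytic enzymes were lower in VEGF-A than in VEGF Trap retinas in 14 of 15, all but Pfkfb4, with called differences of −1.57 to −0.35 and a median of −1.01. Against hFc, 8 of 15 were lower in VEGF-A retinas and 10 of 15 higher in VEGF Trap retinas, with no call in the opposite direction. The enzymes are given in the order of the pathway. Several have near-identical copies in the genome (Aldoa, Tpi1, Pgk1, Pgam1, Eno1, Pkm and Ldha), so their probes may read more than 1 gene, and their values are uncertain in that sense.

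Hexokinase traps glucose in the cell as its phosphate. Hk1, the constitutive neural form, had log2 ratios of −0.44, −0.52, −0.47 and −0.34 in Dll4-Fc retinas, −0.45, −0.42, −0.46, −0.46 and −0.23 in VEGF-A retinas, −0.01, −0.14 and −0.01 in VEGF Trap retinas and −0.57, −0.39, −0.51 and −0.47 in hFc retinas. The VEGF Trap arrays were above all others and the remaining groups overlapped, and both VEGF-A against VEGF Trap (log2 difference −0.35, SE 0.07, adjusted p = 0.00367) and VEGF Trap against hFc (log2 difference 0.43, SE 0.08, adjusted p = 0.00836) were called. Hk2, the inducible form, had 0.04, −0.28, −0.03 and 0.25 in Dll4-Fc retinas, −0.68, −0.70, −0.07, −0.68 and −0.81 in VEGF-A retinas, 0.70, 0.61 and 0.70 in VEGF Trap retinas and −0.45, −0.33, −0.33 and −0.50 in hFc retinas. The VEGF Trap arrays again stood above all others, while VEGF-A 3 lay above hFc and the other 4 VEGF-A arrays below it. Hk2 was 2.39-fold lower in VEGF-A than in VEGF Trap retinas (log2 difference −1.26, SE 0.15, adjusted p = 2.03e-05) and 2.1-fold higher in VEGF Trap than in hFc retinas (log2 difference 1.07, SE 0.15, adjusted p = 0.00224). VEGF-A against hFc was not called (log2 difference −0.19, adjusted p = 0.432).

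Gpi1, which turns glucose phosphate into fructose phosphate, had log2 ratios of −0.49, −0.49, −0.54 and −0.53 in Dll4-Fc retinas, −1.13, −1.15, −1.09, −1.18 and −1.30 in VEGF-A retinas, 0.05, 0.07 and −0.17 in VEGF Trap retinas and −0.52, −0.52, −0.49 and −0.74 in hFc retinas. VEGF-A arrays were lowest, VEGF Trap arrays highest, and Dll4-Fc overlapped hFc. All 3 comparisons were called: VEGF-A against VEGF Trap (log2 difference −1.15, SE 0.08, adjusted p = 5.02e-08), VEGF-A against hFc (log2 difference −0.60, SE 0.07, adjusted p = 3.23e-05) and VEGF Trap against hFc (log2 difference 0.55, SE 0.08, adjusted p = 0.00277).

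Phosphofructokinase catalyses the committed step. Its liver-type subunit Pfkl had log2 ratios of 0.11, 0.06, −0.12 and −0.03 in Dll4-Fc retinas, −0.53, −0.54, −0.60, −0.86 and −0.84 in VEGF-A retinas, 0.57, 0.68 and 0.41 in VEGF Trap retinas and 0.0041, −0.03, −0.15 and −0.11 in hFc retinas. The platelet-type subunit Pfkp had 0.05, 0.27, −0.07 and 0.03 in Dll4-Fc retinas, −0.60, −0.58, −0.73, −0.92 and −0.90 in VEGF-A retinas, 0.77, 0.75 and 0.95 in VEGF Trap retinas and −0.11, −0.35, −0.28 and −0.23 in hFc retinas. For both subunits the VEGF-A, hFc and VEGF Trap arrays formed 3 separate levels in rising order, and the Dll4-Fc arrays of Pfkp lay between hFc and VEGF Trap. Pfkp was 2.96-fold lower in VEGF-A than in VEGF Trap retinas (log2 difference −1.57, SE 0.10, adjusted p = 3.34e-08), the largest difference among the enzymes, and differed from hFc in VEGF-A retinas (log2 difference −0.50, SE 0.09) and in VEGF Trap retinas (log2 difference 1.06, SE 0.11). Pfkl was called in the same comparisons: VEGF-A against VEGF Trap (log2 difference −1.23, SE 0.10), VEGF-A against hFc (log2 difference −0.60, SE 0.09) and VEGF Trap against hFc (log2 difference 0.63, SE 0.10).

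The bifunctional enzymes Pfkfb3 and Pfkfb4 set the level of the main activator of phosphofructokinase. Pfkfb3 had log2 ratios of 0.17, −0.17, 0.14 and 0.20 in Dll4-Fc retinas, −0.42, −0.34, −0.19, −0.40 and −0.43 in VEGF-A retinas, 0.38, 0.33 and 0.71 in VEGF Trap retinas and −0.29, −0.06, −0.24 and −0.31 in hFc retinas. Its VEGF Trap arrays were above all others. VEGF-A was lower than VEGF Trap (log2 difference −0.83, SE 0.11, adjusted p = 6.53e-05) and was not called against hFc (log2 difference −0.13, adjusted p = 0.456), while VEGF Trap was higher than hFc (log2 difference 0.70, SE 0.11, adjusted p = 0.005). Pfkfb4 ranged from −0.46 to 0.40 and was called in no comparison. It had a single hFc value, the other 3 spots being marked as outliers, and its VEGF-A arrays were all below its VEGF Trap arrays (log2 difference −0.47, adjusted p = 0.0617).

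Aldolase splits the fructose bisphosphate. Aldoa, the widespread form, had log2 ratios of −0.22, −0.44, −0.20 and −0.13 in Dll4-Fc retinas, −1.05, −1.11, −0.78, −0.98 and −0.98 in VEGF-A retinas, 0.34, 0.23 and 0.26 in VEGF Trap retinas and −0.60, −0.50, −0.64 and −0.59 in hFc retinas. The 4 groups did not overlap: VEGF-A was lowest, then hFc, Dll4-Fc and VEGF Trap. It was lower in VEGF-A than in VEGF Trap retinas (log2 difference −1.26, SE 0.09, adjusted p = 5.11e-08) and than in hFc retinas (log2 difference −0.40, SE 0.08, adjusted p = 0.00347). It was higher than in hFc retinas both in VEGF Trap (log2 difference 0.86, SE 0.09, adjusted p = 0.000155) and in Dll4-Fc retinas (log2 difference 0.34, SE 0.08, adjusted p = 0.0274). The last call held in 12 of 19 alternatives and in 2 of 8 fits that left out 1 array.

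Aldoc, the form typical of neural tissue, had log2 ratios of −0.61, −0.62, −0.70 and −0.56 in Dll4-Fc retinas, −0.48, −0.29, 0.10, −0.07 and −0.13 in VEGF-A retinas, 0.25, 0.41 and 0.19 in VEGF Trap retinas and −0.15, −0.15, −0.03 and −0.01 in hFc retinas. Here the Dll4-Fc arrays were lowest, below every hFc array and every VEGF-A array. Aldoc was 1.45-fold lower in Dll4-Fc than in hFc retinas (log2 difference −0.54, SE 0.10, adjusted p = 0.00511) and lower than in VEGF-A retinas (log2 difference −0.45, SE 0.10, adjusted p = 0.00567). It was the only member called lower in Dll4-Fc retinas in either comparison. The Müller glia markers moved with it: 8 of 10 were lower in Dll4-Fc than in hFc retinas, with a median of −0.95, and the mean over the 9 measured on every array was −1.18 to −0.50 in Dll4-Fc and 0.05 to 0.18 in hFc retinas. The part of Müller glia in the Aldoc difference was not tested. VEGF-A was lower than VEGF Trap (log2 difference −0.46, SE 0.11, adjusted p = 0.00732), with a log2 difference of −0.72 on slide 3 and −0.23 on slide 4.

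Further along the pathway, Tpi1, triosephosphate isomerase, had log2 ratios of 0.02, −0.20, −0.20 and −0.42 in Dll4-Fc retinas, −1.24, −1.25, −1.12, −0.88 and −0.99 in VEGF-A retinas, 0.16, 0.11 and 0.05 in VEGF Trap retinas and −0.40, −0.37, −0.37 and −0.41 in hFc retinas. Pgk1, which makes ATP from bisphosphoglycerate, had −0.00049, −0.08, 0.06 and 0.06 in Dll4-Fc retinas, −0.61, −0.75, −0.30, −0.62 and −0.64 in VEGF-A retinas, 0.34, 0.37 and 0.34 in VEGF Trap retinas and −0.35, −0.27, −0.09 and −0.29 in hFc retinas. Both had separate VEGF-A and VEGF Trap levels, and for Pgk1 the array VEGF-A 3 reached the hFc range. Tpi1 was lower in VEGF-A than in VEGF Trap retinas (log2 difference −1.20, SE 0.10, adjusted p = 5.03e-07) and than in hFc retinas (log2 difference −0.71, SE 0.09, adjusted p = 8.19e-05), the largest difference from hFc among the enzymes in VEGF-A retinas. Pgk1 was lower in VEGF-A retinas too, against VEGF Trap (log2 difference −0.93, SE 0.09, adjusted p = 3.36e-06) and against hFc (log2 difference −0.33, SE 0.08, adjusted p = 0.02). VEGF Trap was called higher than hFc for Tpi1 (log2 difference 0.50, SE 0.11) and Pgk1 (log2 difference 0.60, SE 0.10).

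Pgam1, phosphoglycerate mutase, had log2 ratios of −0.55, −0.72, −0.43 and −0.22 in Dll4-Fc retinas, −1.25, −1.33, −0.79, −1.30 and −1.03 in VEGF-A retinas, −0.15 and −0.10 in VEGF Trap retinas and −0.79, −0.70, −0.58 and −0.84 in hFc retinas, with VEGF Trap 3 left out. Eno1, an enolase, had −0.60, −0.81, −0.77 and −0.59 in Dll4-Fc retinas, −0.82, −0.92, −0.68, −0.99 and −1.15 in VEGF-A retinas, 0.26, 0.07 and −0.04 in VEGF Trap retinas and −0.52, −0.43, −0.48 and −0.47 in hFc retinas. VEGF Trap arrays were above all others for both, VEGF-A 3 reached the hFc range for Pgam1, and the Dll4-Fc arrays of Eno1 were below hFc and overlapped VEGF-A. Both genes were lower in VEGF-A than in VEGF Trap retinas (Pgam1 log2 difference −1.01, SE 0.15, and Eno1 log2 difference −1.01, SE 0.10) and than in hFc retinas (Pgam1 log2 difference −0.41, adjusted p = 0.0453, and Eno1 log2 difference −0.44, adjusted p = 0.00607). The Pgam1 call against hFc held in 7 of 20 alternatives.

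Pkm, pyruvate kinase, had log2 ratios of 0.17, 0.10, 0.18 and −0.08 in Dll4-Fc retinas, −0.15, −0.02, 0.01, −0.24 and −0.38 in VEGF-A retinas, 0.17, 0.47 and 0.18 in VEGF Trap retinas and 0.09, 0.003, 0.07 and −0.06 in hFc retinas. Ldha, which turns pyruvate into lactate, had −0.65, −0.95, −0.69 and −0.76 in Dll4-Fc retinas, −1.06, −1.08, −0.9996, −1.16 and −1.23 in VEGF-A retinas, −0.21, −0.45 and −0.54 in VEGF Trap retinas and −1.001, −0.69 and −0.72 in hFc retinas, with hFc 2 left out. In both, VEGF-A and VEGF Trap did not overlap, and VEGF-A reached the hFc range. Both were lower in VEGF-A than in VEGF Trap retinas (Pkm log2 difference −0.43, SE 0.10, adjusted p = 0.00832, and Ldha log2 difference −0.70, SE 0.10, adjusted p = 0.000269). Against hFc neither was called in VEGF-A retinas (Pkm log2 difference −0.19, adjusted p = 0.25, and Ldha log2 difference −0.30, adjusted p = 0.0867) or in VEGF Trap retinas (Pkm log2 difference 0.25, adjusted p = 0.204, and Ldha log2 difference 0.40, adjusted p = 0.0702).

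Of the membrane transporters, Slc16a3, which exports lactate and is a classical HIF target, had log2 ratios of 0.53, 0.18, 0.44 and 0.41 in Dll4-Fc retinas, −1.55, −1.54, −1.55, −2.02 and −2.02 in VEGF-A retinas, 0.83, 0.90 and 1.06 in VEGF Trap retinas and −0.07, −0.18, −0.29 and −0.21 in hFc retinas. The 4 groups formed 4 levels without overlap, from VEGF-A, the lowest, through hFc and Dll4-Fc to VEGF Trap. Slc16a3 was 6.34-fold lower in VEGF-A than in VEGF Trap retinas (log2 difference −2.66, SE 0.13, adjusted p = 1.1e-09), the largest difference of any member. It was 2.92-fold lower in VEGF-A than in hFc retinas (log2 difference −1.54, SE 0.12, adjusted p = 2.45e-07), 2.17-fold higher in VEGF Trap than in hFc retinas (log2 difference 1.12, SE 0.13, adjusted p = 0.000557) and 1.5-fold higher in Dll4-Fc than in hFc retinas (log2 difference 0.58, SE 0.12, adjusted p = 0.0117). These 4 calls held in every alternative run.

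Slc2a1, the glucose transporter of vessels and glia, had log2 ratios of −0.33, −0.61, −0.48 and 0.21 in Dll4-Fc retinas, −0.60, −0.56, −0.39, −0.95 and −1.001 in VEGF-A retinas, 0.49, 0.40 and 0.31 in VEGF Trap retinas and −0.43, −0.12, −0.44 and −0.18 in hFc retinas. Its VEGF Trap arrays were above all others, and VEGF-A overlapped hFc. It was lower in VEGF-A than in VEGF Trap retinas (log2 difference −1.10, SE 0.18, adjusted p = 0.000442), and neither was called against hFc (VEGF-A log2 difference −0.41, adjusted p = 0.135, and VEGF Trap log2 difference 0.69, adjusted p = 0.0525).

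**Figure D2:**
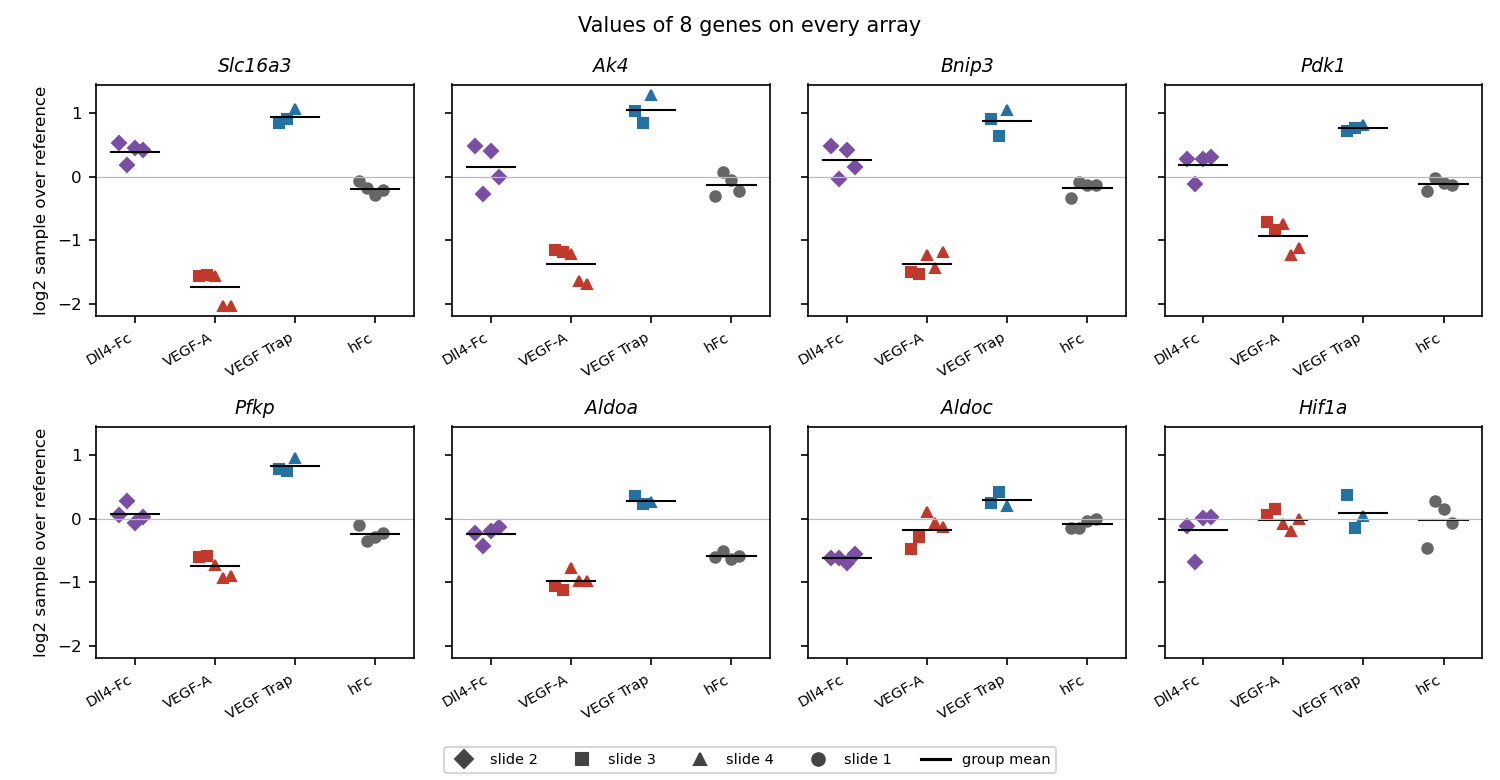
Log2 sample over reference of 8 genes on each of the 16 arrays (vertical axis), by group (horizontal axis), with symbols for slides and a line at the group mean. Slc16a3 shows 4 separate levels, Aldoc is lowest in Dll4-Fc retinas, and the groups of Hif1a overlap.

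The mitochondrial targets held 3 of the 4 largest differences between VEGF-A and VEGF Trap among all members. All 5 were lower in VEGF-A than in VEGF Trap retinas, with a median of −1.69, 3 were lower than in hFc retinas and 4 were higher in VEGF Trap than in hFc retinas. Pdk1, a kinase that shuts pyruvate dehydrogenase and so keeps pyruvate from the mitochondrion, had log2 ratios of 0.28, −0.11, 0.28 and 0.31 in Dll4-Fc retinas, −0.71, −0.84, −0.75, −1.23 and −1.11 in VEGF-A retinas, 0.72, 0.76 and 0.81 in VEGF Trap retinas and −0.23, −0.02, −0.11 and −0.13 in hFc retinas. VEGF-A arrays were lowest and VEGF Trap arrays highest, without overlap. Pdk1 was 3.22-fold lower in VEGF-A than in VEGF Trap retinas (log2 difference −1.69, SE 0.13, adjusted p = 1.28e-07), lower in VEGF-A than in hFc retinas (log2 difference −0.81, SE 0.11, adjusted p = 0.000201) and higher in VEGF Trap than in hFc retinas (log2 difference 0.88, SE 0.13, adjusted p = 0.00284).

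Bnip3, a mitophagy receptor on the outer mitochondrial membrane, had log2 ratios of 0.48, −0.04, 0.42 and 0.15 in Dll4-Fc retinas, −1.49, −1.52, −1.23, −1.43 and −1.18 in VEGF-A retinas, 0.90, 0.64 and 1.05 in VEGF Trap retinas and −0.34, −0.09, −0.13 and −0.13 in hFc retinas. Ak4, an adenylate kinase of the mitochondrial matrix, had 0.48, −0.27, 0.40 and −0.01 in Dll4-Fc retinas, −1.15, −1.18, −1.21, −1.63 and −1.68 in VEGF-A retinas, 1.02, 0.84 and 1.27 in VEGF Trap retinas and −0.30, 0.06, −0.06 and −0.23 in hFc retinas. Each VEGF-A array was below each hFc array, and each VEGF Trap array above it, in both genes. The Dll4-Fc arrays overlapped hFc for Ak4 and lay above hFc for Bnip3. Bnip3 was 4.68-fold lower in VEGF-A than in VEGF Trap retinas (log2 difference −2.23, SE 0.13, adjusted p = 9.54e-09), and Ak4 5.34-fold (log2 difference −2.42, SE 0.18, adjusted p = 1.51e-07). Both were lower in VEGF-A than in hFc retinas (Bnip3 log2 difference −1.19, adjusted p = 5.16e-06, and Ak4 log2 difference −1.24, adjusted p = 0.000112). Both were higher in VEGF Trap than in hFc retinas (Bnip3 log2 difference 1.03, adjusted p = 0.00115, and Ak4 log2 difference 1.18, adjusted p = 0.00477).

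Bnip3l, the related mitophagy receptor, had log2 ratios of −0.02, −0.24, 0.04 and 0.18 in Dll4-Fc retinas, −0.44, −0.41, −0.47, −0.46 and −0.48 in VEGF-A retinas, 0.02, 0.21 and 0.47 in VEGF Trap retinas and 0.01, −0.37, −0.05 and −0.06 in hFc retinas. Higd1a, a small inner-membrane protein, had 0.21, 0.07, 0.18 and 0.27 in Dll4-Fc retinas, −0.28, −0.30, 0.11, −0.12 and −0.16 in VEGF-A retinas, 0.23, 0.28 and 0.23 in VEGF Trap retinas and −0.05, −0.09, −0.19 and −0.08 in hFc retinas. VEGF-A was below VEGF Trap on every array for both (Bnip3l log2 difference −0.68, SE 0.11, adjusted p = 0.000616, and Higd1a log2 difference −0.40, SE 0.09, adjusted p = 0.00478). Higd1a was also higher in VEGF Trap than in hFc retinas (log2 difference 0.35, SE 0.09, adjusted p = 0.0471), a call that held in 9 of 20 alternatives. A second Higd1a probe gave a log2 difference of −0.75 for VEGF-A minus VEGF Trap.

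Among the other HIF targets, 8 of 10 were lower in VEGF-A than in VEGF Trap retinas, with a median of −0.58. Against hFc 3 of 9 were lower in VEGF-A and 2 of 9 higher in VEGF Trap retinas. Ankrd37, an ankyrin repeat protein known as a HIF target, had log2 ratios of 0.25, 0.12, 0.23 and 0.43 in Dll4-Fc retinas, −0.63, −0.66, −0.29, −0.74 and −0.96 in VEGF-A retinas, 0.29, 0.47 and 0.41 in VEGF Trap retinas and 0.12, 0.13, 0.28 and −0.02 in hFc retinas. VEGF-A arrays were below all others, and Dll4-Fc overlapped both VEGF Trap and hFc. It was 2.06-fold lower in VEGF-A than in VEGF Trap retinas (log2 difference −1.05, SE 0.12, adjusted p = 2.15e-05) and 1.72-fold lower than in hFc retinas (log2 difference −0.78, SE 0.11, adjusted p = 0.000221), and VEGF Trap against hFc was not called (log2 difference 0.26, adjusted p = 0.253).

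The collagen prolyl hydroxylase subunits need oxygen to act. P4ha1 had log2 ratios of 0.22, −0.06, 0.14 and −0.01 in Dll4-Fc retinas, −0.05, −0.15, −0.47, −0.50 and −0.64 in VEGF-A retinas, 0.46, 0.43 and 0.62 in VEGF Trap retinas and −0.04, 0.04, 0.01 and 0.13 in hFc retinas. P4ha2 had 0.0026, 0.04, −0.13 and −0.18 in Dll4-Fc retinas, −0.45, −0.18, −0.43, −0.73 and −0.66 in VEGF-A retinas, 0.43, 0.64 and 0.60 in VEGF Trap retinas and −0.21, −0.39, −0.40 and 0.30 in hFc retinas. VEGF Trap was above VEGF-A and hFc on every array for both, and the VEGF-A arrays of P4ha1 on slide 3 were higher than those on slide 4. Both were lower in VEGF-A than in VEGF Trap retinas (P4ha1 log2 difference −0.86, SE 0.12, adjusted p = 0.000139, and P4ha2 log2 difference −1.04, SE 0.15, adjusted p = 0.000207). P4ha1 was also lower in VEGF-A than in hFc retinas (log2 difference −0.39, SE 0.11, adjusted p = 0.0376), a call that held in 11 of 22 alternatives. P4ha2 was higher in VEGF Trap than in hFc retinas (log2 difference 0.73, SE 0.16, adjusted p = 0.0253), which held in 10 of 20.

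Ero1a, an oxidase of the endoplasmic reticulum, had log2 ratios of 0.17, −0.17, 0.18 and 0.37 in Dll4-Fc retinas, −0.11, −0.01, 0.12, −0.06 and −0.13 in VEGF-A retinas, 0.58, 0.24 and 0.56 in VEGF Trap retinas and −0.11, 0.04, 0.03 and −0.11 in hFc retinas. Ddit4, which restrains mTOR signalling under stress, had 0.05, 0.02, 0.24 and 0.14 in Dll4-Fc retinas, −0.27, −0.23, −0.37, −0.37 and −0.42 in VEGF-A retinas, 0.36, −0.04 and 0.48 in VEGF Trap retinas and 0.01, −0.02, 0.16 and 0.09 in hFc retinas. VEGF-A and VEGF Trap did not overlap in either, and both genes were lower in VEGF-A retinas (Ero1a log2 difference −0.50, SE 0.11, adjusted p = 0.00641, and Ddit4 log2 difference −0.60, SE 0.10, adjusted p = 0.000844). Ero1a was called higher in VEGF Trap against hFc (log2 difference 0.49, adjusted p = 0.0357), which held in 10 of 20 alternatives and in 1 of 7 fits that left out 1 array. Ddit4 was called lower in VEGF-A against hFc (log2 difference −0.39, adjusted p = 0.0142).

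Kdm3a, a histone demethylase, had log2 ratios of 0.10, 0.15, −0.02 and 0.19 in Dll4-Fc retinas, −0.13, −0.18, −0.64, −0.67 and −0.55 in VEGF-A retinas and 0.49, 0.35 and 0.44 in VEGF Trap retinas, and all 4 of its hFc spots were marked as outliers. Mxi1, an antagonist of Myc, had 0.05, −0.43, 0.04 and −0.35 in Dll4-Fc retinas, −0.11, −0.17, −0.55, −0.46 and −0.44 in VEGF-A retinas, 0.27, 0.03 and 0.33 in VEGF Trap retinas and −0.08, 0.17, 0.03 and 0.0037 in hFc retinas. In both genes the slide 3 arrays of VEGF-A were above its slide 4 arrays, and all were below VEGF Trap. Both were lower in VEGF-A than in VEGF Trap retinas (Kdm3a log2 difference −0.86, SE 0.13, adjusted p = 0.000755, and Mxi1 log2 difference −0.56, SE 0.13, adjusted p = 0.00923). For Dll4-Fc minus VEGF-A, other probes of Kdm3a gave log2 differences of −0.07 and 0.19, where the chosen probe gave 0.54.

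Vldlr, a lipoprotein receptor, had log2 ratios of −0.03, −0.22, −0.03 and 0.26 in Dll4-Fc retinas, −0.15, −0.15, −0.25, −0.29 and −0.08 in VEGF-A retinas, 0.30, 0.06 and 0.43 in VEGF Trap retinas and −0.27, 0.14, −0.01 and −0.06 in hFc retinas. VEGF Trap arrays were above VEGF-A arrays (log2 difference −0.45, SE 0.12, adjusted p = 0.0145), while hFc overlapped both. Car9, a carbonic anhydrase of the cell surface, ranged from −0.24 to 0.31, and Ndrg1, a stress-response gene, from −0.18 to 0.35. Neither was called in any comparison, with a log2 difference for VEGF-A minus VEGF Trap of −0.20 (95% interval −0.39 to −0.00051) for Car9 and −0.12 (95% interval −0.41 to 0.17) for Ndrg1.

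Within slides, the difference between VEGF-A and VEGF Trap was negative for 35 of 36 members on slide 3 (median −0.74) and for 35 of 35 on slide 4 (median −1.02). The exception on slide 3 was Ndrg1, at 0.28. The median over all genes was −0.02 on slide 3 and −0.04 on slide 4. With slide as a block, 30 of 34 members were called, all lower in VEGF-A retinas. Over all 22882 genes in that fit, 3165 were called, 1410 of them lower and 1755 higher. Slc16a3 gave −2.41 on slide 3 and −2.92 on slide 4, Ak4 −2.10 and −2.78, and Bnip3 −2.27 and −2.32. Slide 4 rests on a single VEGF Trap array.

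**Figure D3:**
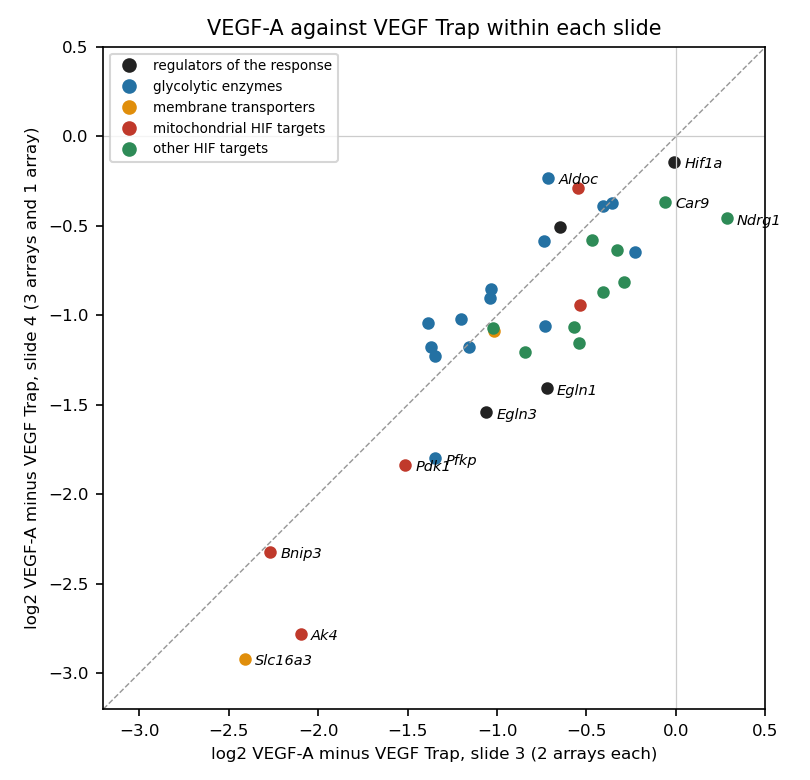
Log2 difference VEGF-A minus VEGF Trap of 35 genes on slide 4 (vertical axis) against slide 3 (horizontal axis), with the line of equality dashed and colours for roles. Ndrg1 is the point right of 0, and Slc16a3, Ak4 and Bnip3 lie at the lower left on both slides.

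Related members were set against each other within arrays, for 8 pairs chosen after their values were seen, so the values are a description with no test. Bnip3 minus Bnip3l averaged −0.92 ± 0.18 in VEGF-A and 0.63 ± 0.23 in VEGF Trap retinas (SD, n = 5 and 3), a gap of −1.54 on the log2 scale. Hk2 minus Hk1 averaged −0.19 ± 0.36 in VEGF-A and 0.73 ± 0.02 in VEGF Trap retinas, a gap of −0.91, and Aldoa minus Aldoc −0.81 ± 0.14 and −0.0062 ± 0.15 in the same order, a gap of −0.80. The gap was −0.54 for Epas1 minus Hif1a and −0.34 for Pfkp minus Pfkl. In these 5 pairs the VEGF-A arrays were all below the VEGF Trap arrays. The 3 other pairs had gaps of −0.36 (Pfkfb3 minus Pfkfb4), −0.26 (Egln3 minus Egln1) and −0.18 (P4ha2 minus P4ha1), with overlapping arrays.

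**Figure D4:**
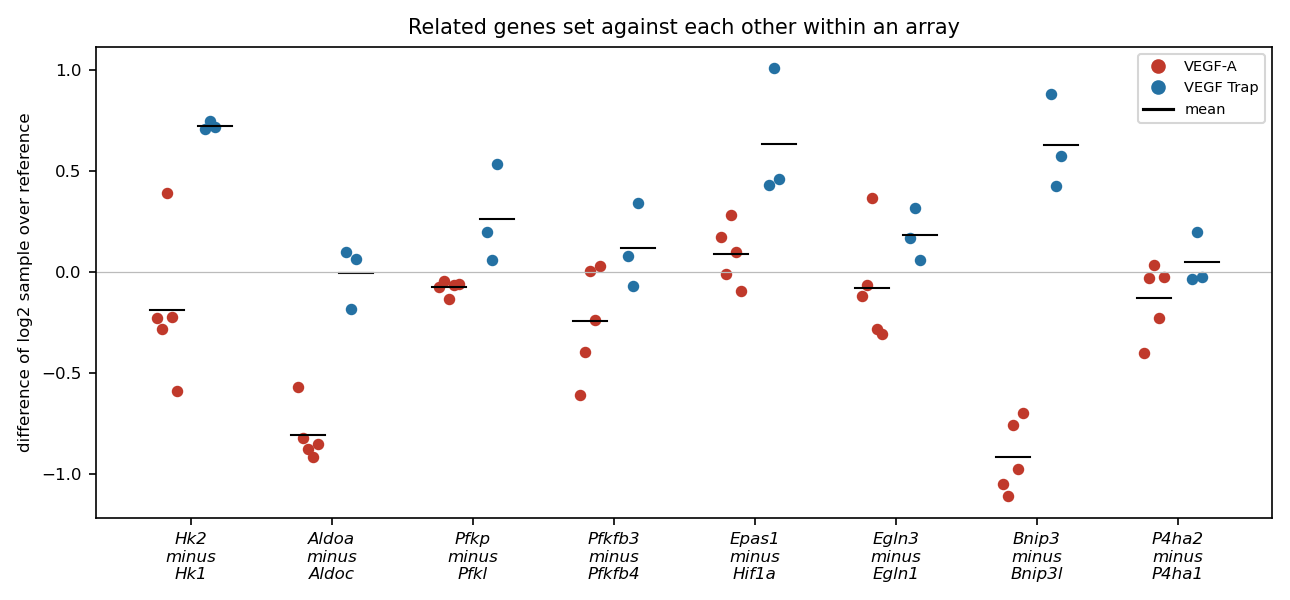
Difference of log2 sample over reference between related genes within each array (vertical axis), for VEGF-A and VEGF Trap arrays side by side in 8 pairs (horizontal axis), with lines at the means. VEGF-A points lie below all VEGF Trap points for Hk2 minus Hk1, Aldoa minus Aldoc, Pfkp minus Pfkl, Epas1 minus Hif1a and Bnip3 minus Bnip3l.

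Between Dll4-Fc and hFc, 32 of 35 members were not called, with log2 differences from −0.22 to 0.59, which does not show that their levels are alike. In all, 28 of 35 differences were positive, and at an unadjusted p under 0.05 10 members were higher and 2 lower in Dll4-Fc retinas. In 7 of 32 uncalled members the Dll4-Fc and hFc arrays did not overlap (Eno1, Hk2, Pfkp, Pgk1, Bnip3, Higd1a and Egln3), against a lower share, 7.73%, of all 21729 uncalled genes. Over all members it was 10 of 35, against 11.8% of all genes tested. Against VEGF-A, the members highest in Dll4-Fc retinas were Slc16a3 (log2 difference 2.13, SE 0.12, adjusted p = 9.09e-09), Bnip3 (log2 difference 1.62, SE 0.12, adjusted p = 1.75e-07), Ak4 (log2 difference 1.52, SE 0.17, adjusted p = 9.89e-06) and Pdk1 (log2 difference 1.12, SE 0.11, adjusted p = 5.14e-06). Among the enzymes in that comparison, Tpi1 (log2 difference 0.90, SE 0.09) and Pfkp (log2 difference 0.82, SE 0.09) led, and Hk1 was not called (log2 difference −0.04, adjusted p = 0.804). The 2 treatments differ in dose and lie on different slides.

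Genes of the same pathways outside the 37 were read from 3 further lists. Of 30 other HIF pathway genes, 15 were lower and 5 higher in VEGF-A than in VEGF Trap retinas (median −0.37). Of 27 tested against hFc, 8 were lower and 1 higher in VEGF-A, 6 higher and 1 lower in VEGF Trap, and 2 higher and 1 lower in Dll4-Fc retinas. Ndufa4l2, a mitochondrial HIF target, was 8.28-fold lower in VEGF-A than in VEGF Trap retinas (log2 difference −3.05, SE 0.11, adjusted p = 6.51e-11). Its log2 difference from hFc was −1.83 in VEGF-A and 1.22 in VEGF Trap retinas, both called. Vegfa itself was lower in VEGF-A than in VEGF Trap retinas (log2 difference −2.10, SE 0.16, adjusted p = 1.53e-07), with log2 differences from hFc of −1.18 in VEGF-A and 0.92 in VEGF Trap retinas, both called. Mif, a cytokine and HIF target, was lower in VEGF-A than in VEGF Trap retinas (log2 difference −1.04, SE 0.08, adjusted p = 3.47e-07).

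Further genes of that list were called against hFc. Depp1, a regulator of autophagy, was lower in VEGF-A than in hFc retinas (log2 difference −1.91, SE 0.20, adjusted p = 6.62e-06). Against hFc, Stc2, a secreted glycoprotein, was higher (log2 difference 1.01, SE 0.16, adjusted p = 0.00363) and Angptl4, an inhibitor of lipoprotein lipase, lower (log2 difference −0.59, SE 0.10, adjusted p = 0.00662) in VEGF Trap retinas. Pygl, the liver-type glycogen phosphorylase, was lower (log2 difference −0.93, SE 0.17, adjusted p = 0.00295) and Fam162a, a mitochondrial HIF target, higher (log2 difference 0.46, SE 0.09, adjusted p = 0.00594) in Dll4-Fc than in hFc retinas. Between Dll4-Fc and VEGF-A, 9 of 30 were higher and 3 lower in Dll4-Fc retinas, with Ndufa4l2 higher (log2 difference 1.58, SE 0.10, adjusted p = 3.9e-08) and Mif higher (log2 difference 0.84, SE 0.08, adjusted p = 1.48e-06).

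Of 17 other glycolysis genes, 7 were lower and 2 higher in VEGF-A than in VEGF Trap retinas (median −0.32). Against hFc, 2 were lower and 2 higher in VEGF-A, 3 higher in VEGF Trap, and 1 higher and 1 lower in Dll4-Fc retinas. Slc2a3, a neuronal glucose transporter, was higher in VEGF Trap than in hFc retinas (log2 difference 0.59, SE 0.09, adjusted p = 0.00284). Hk3, a hexokinase of myeloid cells, was higher in Dll4-Fc than in hFc retinas (log2 difference 1.16, SE 0.17, adjusted p = 0.000589), where all 7 tested microglia markers were higher as well (median 0.82), and their part in it was not tested. Hkdc1, a hexokinase-related enzyme, was lower in Dll4-Fc than in hFc retinas (log2 difference −0.80, SE 0.12, adjusted p = 0.000807) and than in VEGF-A retinas (log2 difference −1.48, SE 0.12, adjusted p = 3.39e-07), where 4 of the 17 were higher and 1 lower in Dll4-Fc retinas.

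The pyruvate dehydrogenase and TCA cycle list had 19 genes tested in every comparison. None was called against hFc in VEGF-A, VEGF Trap or Dll4-Fc retinas, or between Dll4-Fc and VEGF-A, by limma. At an unadjusted p under 0.05, 3 were higher in VEGF-A, 1 higher and 4 lower in VEGF Trap and 1 lower in Dll4-Fc retinas, each against hFc. In VEGF-A against VEGF Trap 3 were higher and 0 lower, with a median of 0.11: Sdhb (log2 difference 0.44, adjusted p = 0.00294), Mdh2 (log2 difference 0.31, adjusted p = 0.0223) and Sdhc (log2 difference 0.38, adjusted p = 0.0275). The per-array mean of 17 of these genes was 0.02 to 0.07 in VEGF-A and −0.12 to −0.02 in VEGF Trap retinas.

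Marker lists of other cells moved with the same treatments. Endothelial markers were higher in VEGF-A than in VEGF Trap retinas in 7 of 8 and lower in none, with a mean over 7 genes of 0.35 to 0.44 in VEGF-A, −0.76 to −0.67 in VEGF Trap and −0.22 to −0.03 in hFc retinas. Cell cycle genes were higher in 7 of 7, at 0.97 to 1.25 in VEGF-A, −1.52 to −1.25 in VEGF Trap and −1.17 to −0.55 in hFc retinas. All 5 erythroid genes were higher too, with a mean over 4 genes of 0.18 to 1.34 in VEGF-A and −1.35 to −0.94 in VEGF Trap retinas. Microglia markers were lower in VEGF-A than in VEGF Trap retinas in 3 of 8. Müller glia markers were split, with 2 higher and 2 lower of 10, as were pericyte markers, with 1 higher and 1 lower of 6. Of 5 astrocyte markers 1 was called, as higher in VEGF-A (Gfap), and their mean was 0.17 to 0.48 in VEGF-A, −0.26 to −0.12 in VEGF Trap and −0.26 to −0.12 in hFc retinas. The median log2 difference of these 5 was smaller, at 0.09 for VEGF-A minus VEGF Trap (4 positive) and 0.06 for VEGF-A minus hFc (3 positive). The mean of 8 rod markers was −0.59 to −0.16 in VEGF-A, −0.29 to 0.07 in VEGF Trap and −0.57 to −0.26 in hFc retinas, and their median log2 difference was −0.33 for VEGF-A minus VEGF Trap and 0.22 for VEGF Trap minus hFc. The mean over the 5 measured lens genes spread from −4.10 to 2.01 over the arrays, and none of these genes was called in any comparison. The part of these cells in the differences of the hypoxia and glycolysis genes was not tested.

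**Figure D5:**
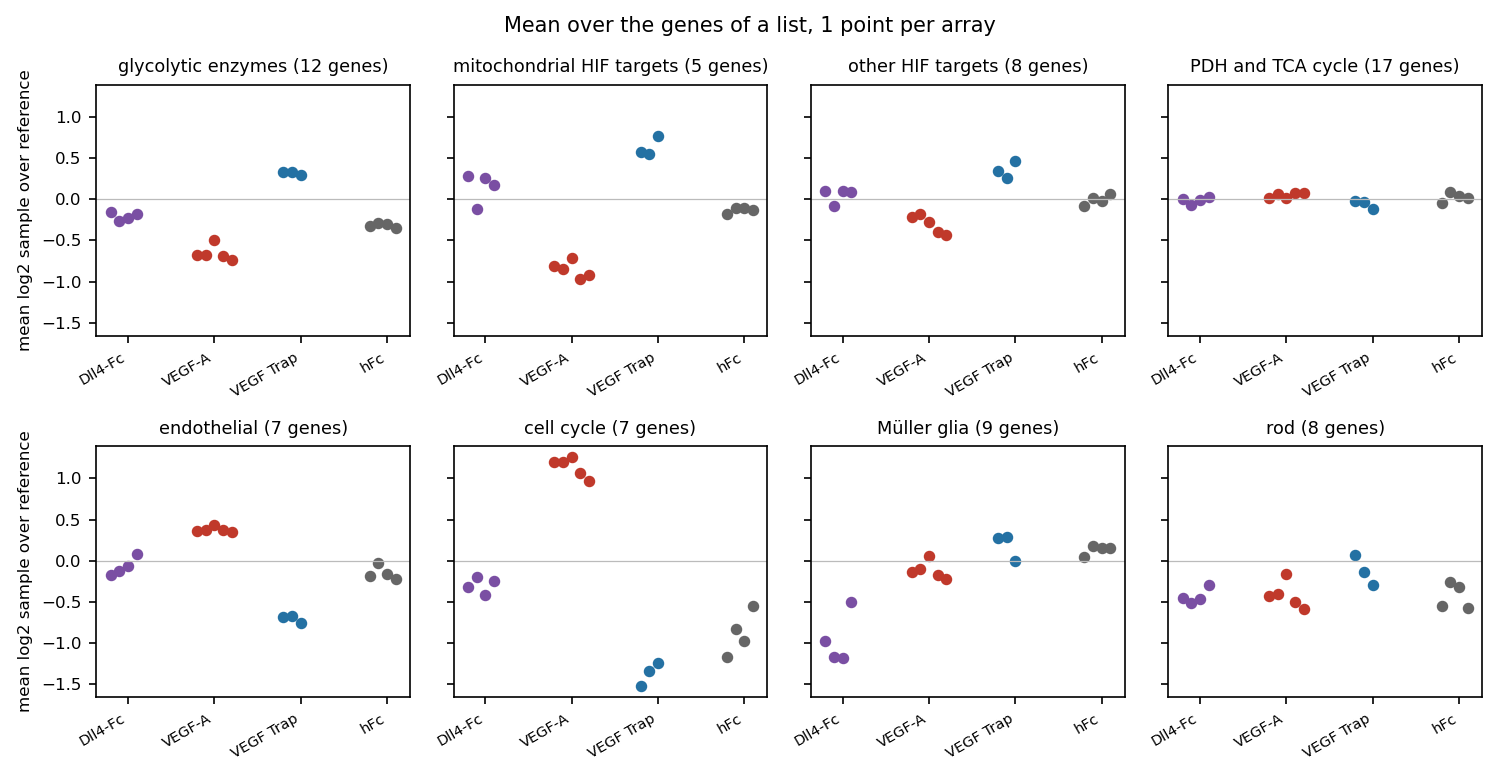
Mean log2 sample over reference over the genes of a list measured on every array (vertical axis), 1 point per array, by group (horizontal axis). Glycolytic enzymes and mitochondrial HIF targets are lowest in VEGF-A and highest in VEGF Trap retinas, endothelial and cell cycle genes run the other way, and the TCA cycle genes stay within −0.12 to 0.09.

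Where a called member had other probes, they were read as well. In VEGF-A against VEGF Trap, 32 of 32 other probes had the direction of the chosen probe and 23 of them were called. In VEGF-A against hFc 7 of 7 had the same direction and 2 were called, and in VEGF Trap against hFc 19 of 19 and 9. For Dll4-Fc against VEGF-A 17 of 18 had the same direction, the exception being a Kdm3a probe. No other probe was called in the opposite direction.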

How the data were processed

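RNA of 16 retina samples was hybridised on 2-colour Agilent arrays, sample in Cy3 and a common pool in Cy5, with no dye swap, per the labels. Signal intensities, outlier marks and log10 ratios of Cy5 over Cy3 were made by Agilent Feature Extraction 9.5.1.1, with background subtraction, spatial detrending and dye normalization, per the file headers. The authors' deposited value table holds the natural log of sample over reference: over all probes each column correlated with the turned log10 ratio at 0.999 or above, and 25.1 to 27.5% of its values were empty. Its column medians were 0.00737, 0.0116, 0.0116 and 0.00127 for Dll4-Fc 1 to 4, −0.00354, −0.000165, 0.00888, −0.00581 and −0.00401 for VEGF-A 1 to 5, 0.0146, 0.00603 and 0.0218 for VEGF Trap 1 to 3, and 0.0184, 0.0155, 0.0186 and 0.00263 for hFc 1 to 4. Whether its genes or arrays were centred is stated in no source used here.

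The log10 ratios were turned to log2 of sample over reference, spots marked as outliers were left out, and a probe was kept where Cy3 was well above background on 3 or more arrays (39787 of 43426 probes, 23342 genes). Symbols were brought up to date through RefSeq, and the probe with the highest mean intensity stood for its gene. All 4 groups entered 1 limma fit (limma 3.58.1, R 4.3.3, 12 residual degrees of freedom), with moderated 2-sided tests and Benjamini-Hochberg adjustment over all genes at 0.05. The number of arrays limits the precision. Fits were checked on simulated data, for the comparisons with hFc and for VEGF-A against VEGF Trap. Of simulated log2 changes of 0.5, 33.0 to 43.3% were called, and of log2 changes of 1, 70.7 to 75.0%. False calls made up 2.70 to 4.96% of the calls. Real differences can thus go uncalled. Each size of change was given to only 100 of the 22772 or 23342 genes in a fit. In the real data, 3.73 to 19.3% of all genes were called in these comparisons. How often differences of members go uncalled was not tested. Replicates are numbered in the order of their records. The members, the other lists and the tests were chosen with earlier results of these data known. Every member called in at least 1 comparison is given on every array and the others by range, and of the other pathway lists up to 4 called genes with the smallest p per comparison are named, except genes not reported here.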

Additional observations from a re-analysis of the deposited data

Results flagged for a closer look

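In 7 of 103 groups of 4 or 5 arrays (1 gene in 1 treatment), a single array lay far from the rest by Dixon's criterion, which chance meets in about 1 in 20 groups. Dll4-Fc 2 was the array in 3 of them: Pfkfb3 at −0.17 (log2 sample over reference, as are all values here) against 0.14 to 0.20 on the other Dll4-Fc arrays, Pfkfb4 at 0.37 against −0.21 to −0.15, and Pdk1 at −0.11 against 0.28 to 0.31. In VEGF-A retinas Hk2 was −0.0737 on VEGF-A 3 against −0.81 to −0.68 on the other arrays, and Hk1 was −0.23 on VEGF-A 5 against −0.46 to −0.42. In hFc retinas Gpi1 was −0.74 on hFc 4 against −0.52 to −0.49, and Bnip3 was −0.34 on hFc 1 against −0.13 to −0.09.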

How the results depend on the processing

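No paired analysis was possible because the labels give no replicate numbers, and the first part of only 1 title code is shared across treatments (VEGF-A 4 and VEGF Trap 3). Called in every alternative that gave a value were 20 of 32 members for VEGF-A against VEGF Trap, 13 of 22 for Dll4-Fc against VEGF-A, 9 of 15 for VEGF-A against hFc, 4 of 20 for VEGF Trap against hFc and 1 of 3 for Dll4-Fc against hFc (Slc16a3). The count for VEGF Trap against hFc was 13 with Cy3 alone and 5 with slide 4 only, where 1 VEGF Trap array remains and is taken to vary like the other groups. The count for Dll4-Fc against hFc was 6 with normexp and loess (5 higher, 1 lower). Over all 22772 genes 1202 were called in that setting (763 higher, 439 lower), against 1043 in the main fit. Leaving out 1 array at a time gave 12 to 17 for VEGF Trap against hFc (12 without VEGF Trap 1), 2 to 5 for Dll4-Fc against hFc (5 without Dll4-Fc 2), 11 to 15 for VEGF-A against hFc, 29 to 32 for VEGF-A against VEGF Trap and 20 to 23 for Dll4-Fc against VEGF-A. Kdm3a in Dll4-Fc against VEGF-A was −0.0742 (adjusted p = 0.81 by limma) among probes well above background on all arrays, where another probe stands for it. Over all genes, VEGF Trap against hFc had 850 calls, but 1823 with normexp and loess, 310 with Cy3 alone, 470 with hFc 1 and 2 averaged, 176 with slide 4 only, 190 and 377 without VEGF Trap 1 and 3, and 367, 390 and 534 without hFc 2, 3 and 4. VEGF-A against VEGF Trap had 4494, but 2895 without VEGF Trap 1, 2993 with slide 3 only and 2350 with slide 4 only. Calls lower in VEGF-A than in hFc numbered 980, but 602 and 600 without hFc 2 and 3, 648 with hFc 1 and 2 averaged, 640 with Cy3 alone, 1658 with slide 3 only and 514 with slide 4 only. Averaging hFc 1 and 2 was run only for comparisons with hFc. The gap of each paralogue pair between VEGF-A and VEGF Trap was negative in all 14 alternatives, chosen after seeing the data as the pairs were. Beyond fewer arrays in the left-out fits, the cause of these shifts was not tested.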
